A study of Mus musculus with 6 samples.

Results

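The blood vessels of the retina were examined through 33 genes typical of endothelial cells, which line the vessels, and of mural cells, the pericytes and smooth muscle cells wrapped around them. Each gene was represented by its brightest transcript cluster (a group of exon probes) that carried its symbol alone, judged by the mean of all 6 arrays. Of the 33 genes, 32 had such a cluster, out of 19611 genes on the array, and 31 lay above the level filter and were tested among 17468 genes. Of these, 21 were endothelial and 10 mural. The contractile gene Myl9 had no named cluster used here, and the transporter gene Slco1a4 lay below the filter.

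The samples came from C57BL/6 mice of mixed sex. Retinas of Sall3 knockout and wild-type animals were dissected on the day of birth (postnatal day 0), flattened on membrane filters and floated for 7 days on medium with fetal bovine serum. RNA of 3 retinas was pooled for each sample, and 3 knockout and 3 wild-type samples were each put on 1 Affymetrix mouse exon array. Sall3, a Spalt family gene, encodes a transcription factor with zinc fingers. The labels do not describe the knockout allele, and they do not give the litter or culture run of a sample, so the p-values reflect only how far these samples spread. An explant has no blood flow, and in bulk tissue fewer cells of a type and less RNA per cell cannot be told apart.

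Endothelial cells are held together by junctions of VE-cadherin and claudins and are kept in their identity by ETS and SoxF transcription factors. In the retina they form a barrier whose tightness depends on pericytes, which endothelial cells attract with platelet-derived growth factor. In the mouse the retinal vessel network grows out from the optic nerve after birth, so a retina taken on the day of birth holds only its beginnings, together with any hyaloid or choroidal vessels carried over in dissection.

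All values are log2 signals after quantile normalization, so a difference of 1 is a 2-fold change of signal. No detection value came with the clusters, and any background signal makes a measured difference smaller than the difference in RNA. Knockout 1 stood apart from the other knockout arrays. It held the highest of the 6 values for 45.6% of all genes tested, against 2.85% for knockout 2 and 4.15% for knockout 3. Wild-type 1, 2 and 3 held the highest value for 9.42%, 23.9% and 14.1%. The lowest value fell most often in wild-type 3, for 32.2% of genes. Correlations between arrays ranged from 0.965 to 0.982 within a genotype and from 0.957 to 0.978 between genotypes. The targeted gene Sall3 had values of 6.24, 6.05 and 6.13 in knockout 1, 2 and 3, and in wild-type 1, 2 and 3 of 6.21, 6.36 and 6.33. Its difference of -0.16 (SE 0.10) did not pass (limma adjusted p = 0.877), and the two-sided exact permutation test gave p = 0.2, where 0.1 is the smallest possible. Whether its probes fall inside the deleted sequence is unknown, so this value does not check the labels.

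None of the 31 tested members, called vascular genes here, passed the test for a difference between knockout and wild-type explants. In the limma fit over all 75632 clusters, 0 of the 31 passed an adjusted p of 0.05, where 0% of all clusters did, and 0 passed an unadjusted p of 0.05, where 1.6% of gene rows and 6.57% of all clusters did. That share of gene rows depends on the fit, since 279 of 17468 passed there and 778 when the fit held 1 row per gene. The smallest p among the 31 vascular genes was that of Sox17 (limma unadjusted p = 0.204, adjusted p = 0.893). The endothelial genes were balanced, with 11 lower and 10 higher in knockout and a median difference of -0.0027. Of the 10 mural genes 9 were lower, with a median of -0.06. Over all genes tested the median was -0.0091, with 54.7% lower.

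The intervals show how large a difference of signal these 6 arrays leave possible for a single gene. For 28 of the 31 genes the 95% interval from limma lay within a 1.5-fold change of signal in either direction, and for 30 within a 2-fold change. The exceptions at 1.5-fold were Sox17, Plvap and Acta2, and at 2-fold Sox17. The share of all genes with such intervals was not counted. For dim genes such as Emcn, Abcb1a, Des, Erg and Mmrn2 a narrow interval may reflect background signal, which was not tested. The plot of differences with their intervals shows all members.

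**Figure D1:**
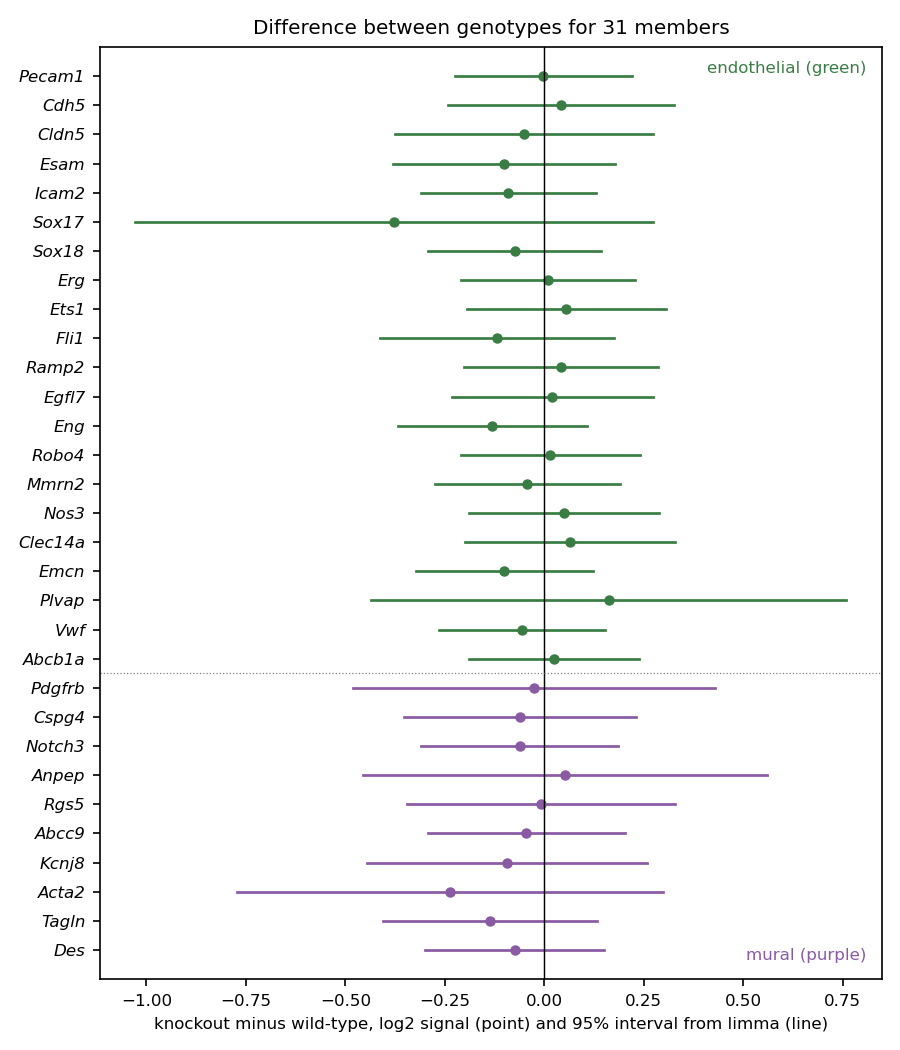
Knockout minus wild-type difference in log2 signal (horizontal axis) for the 31 tested genes (vertical axis), with 21 endothelial genes in green above the dotted line and 10 mural genes in purple below it. Points are differences of the means of 3 arrays and lines are 95% intervals from limma. Every interval crosses 0, and the widest are those of Sox17, Plvap and Acta2.

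Among the endothelial junction and adhesion genes, the markers Pecam1, Cdh5 and Cldn5 had close means in the 2 genotypes. Their signals lay not far above the deposited column medians of 4.97 to 5.07. How far background signal made their differences smaller was not tested. Pecam1, the CD31 adhesion molecule found on all endothelium, had values of 5.68, 5.58 and 5.57 in knockout 1, 2 and 3 and of 5.60, 5.64 and 5.59 in wild-type 1, 2 and 3. Knockout 1 was above all wild-type arrays and the other knockout arrays were just below them, and the difference was -0.0027 (SE 0.09, 95% interval -0.22 to 0.22). Cdh5, the VE-cadherin of adherens junctions, stood at 5.25, 5.02 and 5.10 in knockout and at 5.15, 5.16 and 4.95 in wild-type arrays. Knockout 1 was highest and wild-type 3 lowest, and the difference was 0.04 (SE 0.12). Cldn5, the main claudin of the blood-retina barrier, stood at 5.43, 5.33 and 5.29 in knockout and at 5.24, 5.34 and 5.63 in wild-type arrays. Its wild-type values spanned those of the knockout, and the difference of -0.05 (SE 0.13, 95% interval -0.38 to 0.27) turned to 0.06 without wild-type 3.

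The remaining adhesion genes of this group had lower means in knockout, without passing the test. Icam2, an adhesion molecule of resting endothelium, had values of 5.35, 5.46 and 5.45 in knockout and of 5.50, 5.52 and 5.51 in wild-type arrays. Every knockout value was below every wild-type value, with a difference of -0.09 (SE 0.09, limma unadjusted p = 0.351, adjusted p = 0.934). Such a separation towards lower signal was seen in 4 of the 31 vascular genes, or 12.9%, against 11.2% of all genes tested. These 4 include Emcn, which reached the level filter only through its wild-type values, so nothing is read from the count. The reverse separation was seen in 0 of the 31, against 1.7% of all genes. Esam, an adhesion molecule of tight junctions, overlapped between the groups at -0.10 (SE 0.11), and ranged from -0.03 without wild-type 2 to -0.15 without knockout 1.

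The transcription factors gave the largest difference of any vascular gene, that of Sox17, and it rested on single arrays. Sox17, a SoxF factor of arterial endothelium, had values of 5.10, 5.10 and 4.67 in knockout and of 5.09, 5.04 and 5.87 in wild-type arrays. Only knockout 3 and wild-type 3 stood off, on opposite sides, while the other 4 arrays lay between 5.04 and 5.10. The difference was -0.38 (SE 0.26, 95% interval -1.03 to 0.27), and -0.11 without wild-type 3. A further cluster of Sox17 was almost as bright, with a mean of 5.12 over the deposited columns against 5.14 for the one used. That cluster stood between 5.06 and 5.18 on all arrays and differed by -0.07 (SE 0.09). A dimmer cluster of Sox17 went the opposite way, at 0.37 (SE 0.39). With the mean of the kept clusters of Sox17 the difference was -0.026.

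Of the other factors of endothelial identity, Fli1 varied more between arrays of a genotype than Sox18, Erg and Ets1. Sox18, the partner of Sox17 in the SoxF group, stood at 6.72, 6.76 and 6.70 in knockout and at 6.76, 6.81 and 6.85 in wild-type arrays, with an overlap of a single pair of arrays and a difference of -0.08 (SE 0.09). The ETS family factors Erg and Ets1 differed by 0.0083 (SE 0.09) and 0.06 (SE 0.10), and both changed sign without knockout 1. Fli1, an ETS factor also made by blood cells and microglia, had 6.38 in knockout 1 but 6.07 in both other knockout arrays, against 6.28, 6.33 and 6.27 in wild-type. Its difference of -0.12 (SE 0.12) was -0.22 without knockout 1. The median of 12 microglia and macrophage markers lay on the same arrays at 0.13 in knockout 1, -0.20 in knockout 2 and -0.28 in knockout 3 relative to the wild-type mean, and the part of such cells in the Fli1 values was not tested.

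**Figure D2:**
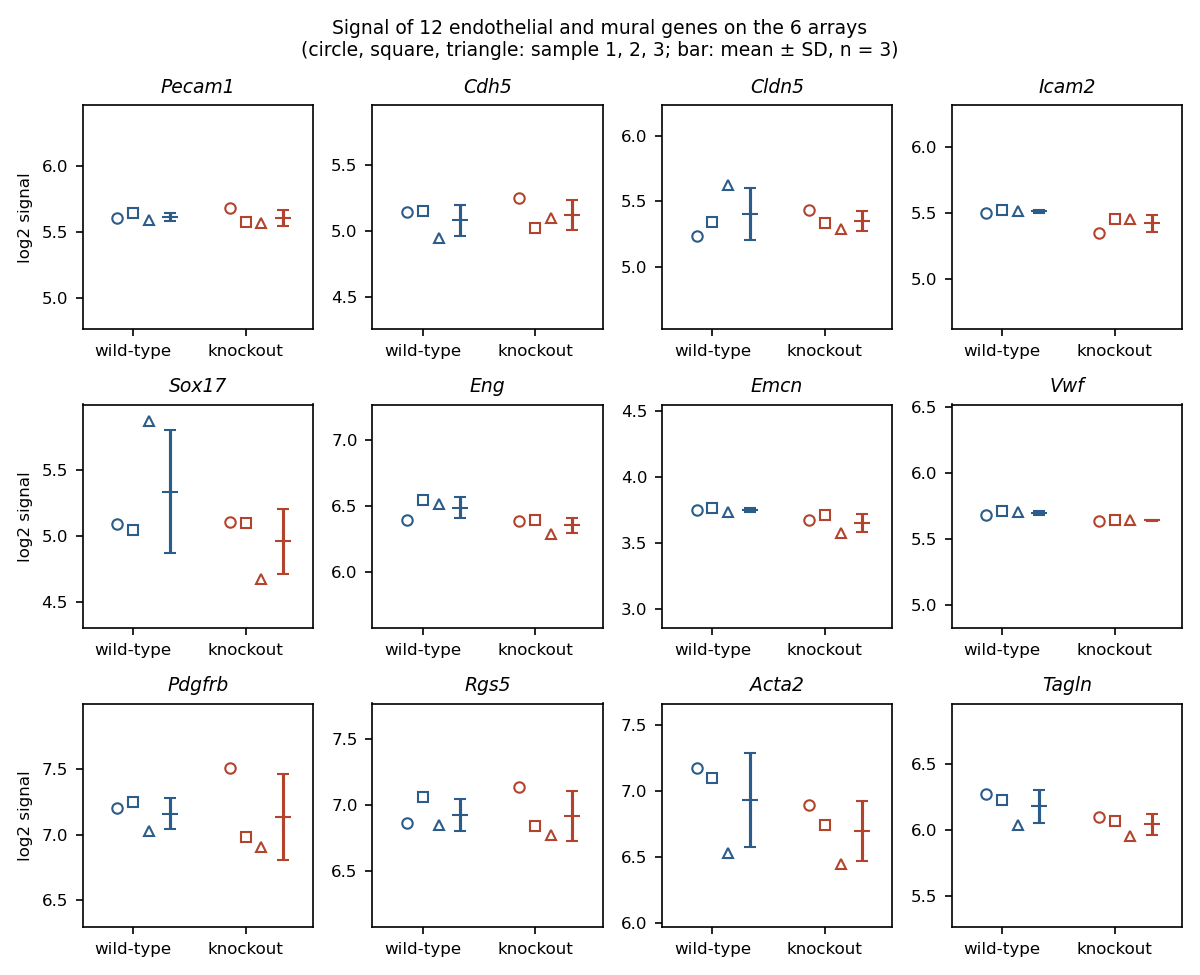
Log2 signal (vertical axes, each spanning the same number of log2 units) of 12 endothelial and mural genes in wild-type (blue) and knockout (red) explants. Circles, squares and triangles are samples 1, 2 and 3 and bars are means ± SD (n = 3). The genotypes separate for Icam2, Eng, Emcn and Vwf by small steps, while Sox17, Pdgfrb and Acta2 spread widely within a genotype.

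The receptors, secreted factors and signalling proteins of the endothelium were represented by 7 genes, of which 5 had higher and 2 lower means in knockout, none past the test. Eng encodes endoglin, a co-receptor for transforming growth factor beta ligands that rises in dividing endothelium. It had values of 6.39, 6.39 and 6.29 in knockout and of 6.40, 6.55 and 6.52 in wild-type arrays. Every knockout value was below every wild-type value, though knockout 2 and wild-type 1 nearly met, and the difference was -0.13 (SE 0.10, limma unadjusted p = 0.224, adjusted p = 0.901). Of the 6 vascular genes with the lowest p-values, 3 had a promoter window, namely Eng, Emcn and Acta2. The window of Emcn held neither of the patterns described below and is not printed. That of Eng, which had the second lowest p, is printed here, and that of Acta2 further below. The Eng window covers the 250 bases before the annotated start in RefSeq on GRCm38.p6, at chr2:32646345-32646594 on the plus strand. Capitals mark matches to the ETS-type pattern GGAAGT, which reads ACTTCC on the other strand, and to the CArG-like pattern bound by serum response factor. The ETS-type pattern is longer than the GGAA core of ETS sites, and GGAA alone was neither searched for nor marked. The CArG-like pattern was taken as CC and GG around 6 letters of which at most 1 is C or G. It reads the same way on both strands.
Eng promoter: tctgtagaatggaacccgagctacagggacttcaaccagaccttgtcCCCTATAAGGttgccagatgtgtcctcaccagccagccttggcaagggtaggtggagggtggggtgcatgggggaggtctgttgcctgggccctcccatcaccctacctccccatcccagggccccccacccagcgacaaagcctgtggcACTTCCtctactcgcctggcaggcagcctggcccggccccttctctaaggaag

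The ETS-type match lies 53 to 48 bases before the start, and the CArG-like match, CCCTATAAGG, 203 to 194 bases before it, without overlap. Of all 32851 promoter windows of this length, 19.7% held the ETS-type pattern and 8.59% the CArG-like pattern. Windows were found for 9 endothelial genes, 13 windows in all, and 3 of these held the ETS-type pattern and 3 the CArG-like pattern. Egfl7 and Erg had several windows each, so these are counts of windows and not of genes. The windows with the ETS-type pattern belonged to Egfl7 and Eng only, and those with the CArG-like pattern to Egfl7, Eng and Slco1a4. A match is a description of letters and no evidence of binding.

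Most other genes of this group had a low value in wild-type 1. The adrenomedullin co-receptor gene Ramp2 stood at 5.88 in wild-type 1 and between 5.99 and 6.09 on the other arrays. Egfl7, a secreted angiogenic factor whose gene hosts a microRNA of the endothelium, stood at 5.91 there and between 5.97 and 6.12 elsewhere. The guidance receptor gene Robo4, the nitric oxide synthase gene Nos3 and the lectin gene Clec14a were also lowest in wild-type 1, at 5.06, 6.51 and 5.23. Thus 5 of the 7 genes were lowest in that array, which was the lowest for 9.91% of all genes and for 9 of the 31 vascular genes. The differences of these 5 genes lay between 0.01 and 0.06, and without wild-type 1 those of Ramp2, Egfl7, Robo4 and Clec14a turned negative. Mmrn2, an extracellular ligand of Clec14a, went the other way, with its highest value of 4.93 in wild-type 1 and its lowest of 4.75 in knockout 1, and differed by -0.04 (SE 0.09).

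Of the 3 glycoproteins that distinguish vessel types, Vwf and Emcn had small differences that separated the genotypes, and Plvap did not. Vwf, the clotting factor stored by endothelium of larger vessels, had values of 5.64, 5.64 and 5.64 in knockout and of 5.68, 5.71 and 5.70 in wild-type arrays. The groups did not overlap, and the difference of -0.06 (SE 0.08) exceeded the pooled SD within a genotype of 0.010, the smallest of the vascular genes. The fit, which draws each variance towards that of all clusters, did not call it (limma unadjusted p = 0.532, adjusted p = 0.962). Emcn, the endomucin of veins and capillaries, stood at 3.67, 3.71 and 3.57 in knockout and at 3.75, 3.77 and 3.74 in wild-type arrays, just above the level filter of 3.70 in its mean. Its knockout mean of 3.65 lay below that filter and its wild-type mean of 3.75 above it, so it was tested only because of its wild-type values. The groups did not overlap, and the difference was -0.10 (SE 0.09, limma unadjusted p = 0.313, adjusted p = 0.928).

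Plvap, a protein of the diaphragms of fenestrated vessels such as those of the choroid, had 1 high array in each genotype. It stood at 6.51 in knockout 1 and 6.17 in wild-type 2, and between 5.67 and 5.87 on the other 4 arrays. Its difference was 0.16 (SE 0.24, 95% interval -0.43 to 0.76), and -0.07 without knockout 1. Of the barrier transporter genes, Abcb1a, which encodes the drug efflux pump P-glycoprotein, lay between 3.83 and 3.92 on all arrays and differed by 0.02 (SE 0.09). The organic anion transporter gene Slco1a4, below the level filter and not tested, lay between 3.08 and 3.14.

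The receptors and surface proteins of mural cells did not pass the test, and Pdgfrb and Anpep spread widely between arrays of a genotype. Pdgfrb, the receptor through which endothelial cells recruit pericytes, had values of 7.51, 6.98 and 6.91 in knockout and of 7.20, 7.25 and 7.03 in wild-type arrays. Knockout 1 was the highest and the other knockout arrays the lowest of all, and the difference of -0.03 (SE 0.19, 95% interval -0.48 to 0.43) became -0.21 without knockout 1. Notch3, the Notch receptor of arterial smooth muscle and pericytes, and Cspg4, the NG2 proteoglycan of pericytes and oligodendrocyte precursors, differed by -0.06 each (SE 0.10 and 0.12), with overlapping groups. With 1 array left out Notch3 ranged from -0.01 without knockout 2 to -0.11 without knockout 1, and Cspg4 from -0.0061 without wild-type 3 to -0.16 without wild-type 1. Anpep, an aminopeptidase of pericytes that fibroblasts also carry, was low in wild-type 1 at 6.05 and lay between 6.47 and 6.79 on the other arrays. Its difference of 0.05 (SE 0.21) was -0.16 without wild-type 1.

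Among the genes of the pericyte potassium channel and of G protein signalling, Rgs5 followed Pdgfrb across the arrays. Rgs5, a brake on G protein signalling in pericytes, stood at 7.13, 6.84 and 6.77 in knockout and at 6.86, 7.06 and 6.84 in wild-type arrays, a difference of -0.0085 (SE 0.14). Its dimmer cluster stood at 0.21 (SE 0.17). Abcc9 and Kcnj8 encode the sulfonylurea receptor and the pore of the same ATP-sensitive potassium channel, and they differed by -0.05 (SE 0.10) and -0.09 (SE 0.14), with overlapping groups. They took opposite places in knockout 1. Abcc9 had its highest value there, 5.17 against 4.95 to 5.12 elsewhere, and Kcnj8 its lowest, 5.37 against 5.68 to 5.82 elsewhere. Without knockout 1 the value of Kcnj8 turned to 0.04.

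The contractile genes had lower means in knockout in all 3 members tested, with a median of -0.14, none past the test. Acta2, the smooth muscle actin, had values of 6.90, 6.75 and 6.45 in knockout and of 7.18, 7.10 and 6.53 in wild-type arrays. Wild-type 1 and wild-type 2 were the highest, but wild-type 3 lay below 2 of the knockout arrays. The difference was -0.24 (SE 0.22, 95% interval -0.77 to 0.30, limma unadjusted p = 0.317, adjusted p = 0.929). Without wild-type 3 it was -0.44, and -0.12 without wild-type 1. The fit without wild-type 3 was the only case in which any of the 31 members passed an unadjusted p of 0.05 (limma unadjusted p = 0.0469, adjusted p = 0.821).

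Tagln, which encodes the actin-binding protein transgelin, stood at 6.10, 6.07 and 5.95 in knockout and at 6.27, 6.23 and 6.03 in wild-type arrays, a difference of -0.14 (SE 0.11, limma unadjusted p = 0.257, adjusted p = 0.914). Acta2 and Tagln placed the 6 arrays in the same order, from wild-type 1, wild-type 2, knockout 1 and knockout 2 down to wild-type 3 and knockout 3. Des, the muscle intermediate filament desmin that pericytes share, was lowest in knockout 1 at 4.51, lay between 4.62 and 4.69 elsewhere, and differed by -0.07 (SE 0.09). Markers of skeletal muscle, which also makes desmin, were lower in all 7 members tested, with a median of -0.04 and 0 past an unadjusted p of 0.05, and their part in the Des values was not tested. Acta2 had the largest difference among mural genes, and contractile genes are known targets of serum response factor. The promoter window of Acta2 is printed because it was among those of the 6 lowest p-values and held a match. It covers the 250 bases before the start on GRCm38.p6, at chr19:34255374-34255623 on the minus strand, and capitals mark CArG-like matches.
Acta2 promoter: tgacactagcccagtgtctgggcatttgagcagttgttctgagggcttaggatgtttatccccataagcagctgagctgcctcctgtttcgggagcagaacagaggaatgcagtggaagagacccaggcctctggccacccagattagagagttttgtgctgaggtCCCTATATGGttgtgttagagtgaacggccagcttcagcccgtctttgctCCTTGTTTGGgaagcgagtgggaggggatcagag

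The matches, CCCTATATGG and CCTTGTTTGG, lie 84 to 75 and 34 to 25 bases before the start and do not overlap. The ETS-type pattern GGAAGT was not found in this window, though unmarked GGAA stretches are. Among 9 mural windows, 1 for each of 9 genes, 2 held the CArG-like pattern and 1 the ETS-type pattern. The CArG-like pattern was in the windows of Acta2 and of Myl9, which was not measured here, and the ETS-type pattern in that of Anpep. The window of the contractile gene Des held neither.

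For most vascular genes the arrays of a genotype differed more among themselves than the genotypes differed in their means. The pooled SD within a genotype ranged from 0.010 for Vwf to 0.37 for Sox17, with medians of 0.07 for endothelial and 0.14 for mural genes against 0.10 for all genes tested. In 23 of the 31 genes the difference between genotypes was smaller than this SD. Those in which it was larger were Icam2, Sox17, Sox18, Eng, Emcn, Vwf, Tagln and Des, each of them lower in knockout. The share of all genes with a difference beyond this SD was not counted, and Emcn was tested only through its wild-type values. Over all genes tested, separated groups also lay mostly towards lower signal, in 11.2% against 1.7% towards higher. Nothing about vessels is therefore read from this count or its direction.

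**Figure D3:**
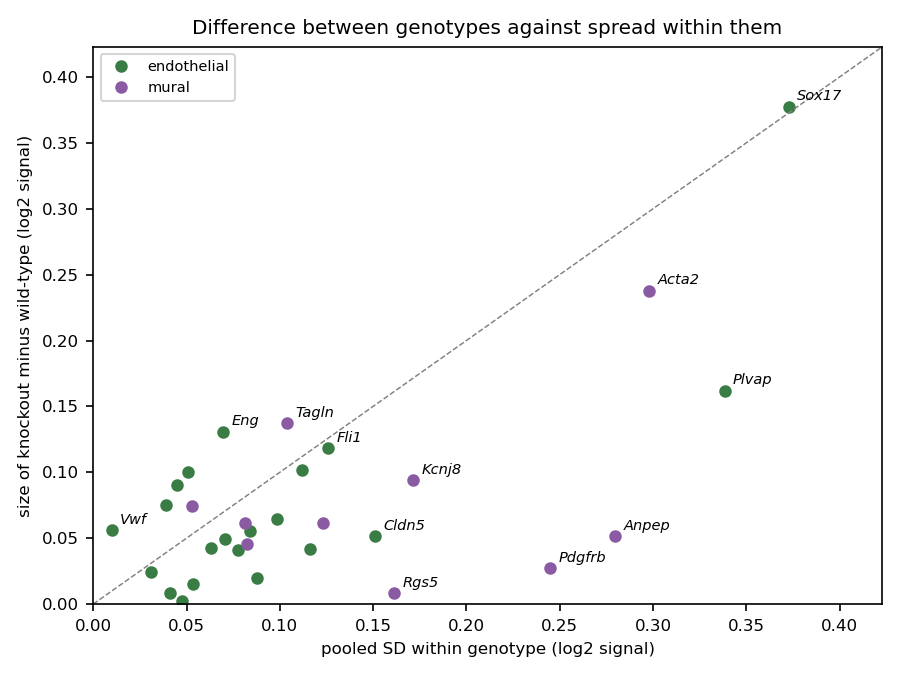
Size of the knockout minus wild-type difference (vertical axis) against the pooled SD of arrays within a genotype (horizontal axis), both in log2 signal, for 21 endothelial (green) and 10 mural (purple) genes. On the dashed line the difference and the SD are equal. Below it lie 23 genes, among them Pdgfrb, Anpep, Plvap and Acta2, and above it 8.

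Several genes of both cell types followed the same arrays. Pecam1, Fli1, Pdgfrb and Rgs5 placed the 6 arrays in an identical order, with knockout 1 highest, then wild-type 2, wild-type 1 and wild-type 3, and knockout 2 and knockout 3 lowest. The median of all genes tested, relative to the wild-type mean, took nearly that order, at 0.06 in knockout 1, 0.04 in wild-type 2, -0.0026 in wild-type 1, -0.03 in wild-type 3, -0.04 in knockout 3 and -0.05 in knockout 2. Knockout 1 held the highest value for 12 of the 31 vascular genes, or 38.7%, below the 45.6% of all genes. Endothelial medians on the knockout arrays 1, 2 and 3 were 0.05, -0.04 and -0.02, and on the wild-type arrays -0.05, 0.03 and 0.0034. Mural medians on the knockout arrays were 0.01, -0.10 and -0.08, and on the wild-type arrays 0.0038, 0.07 and -0.03. In both lists the genotypes overlapped. Without knockout 1 the endothelial median was -0.04, with 17 of 21 genes lower, and the mural median -0.11, with 8 of 10 lower. With 1 array left out, the count of lower mural genes ranged from 6 without knockout 2 to all 10 without wild-type 1, where 15 of 21 endothelial genes were lower. It was 7 with the values as deposited and with median centring, where Pdgfrb and Rgs5 changed sign.

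**Figure D4:**
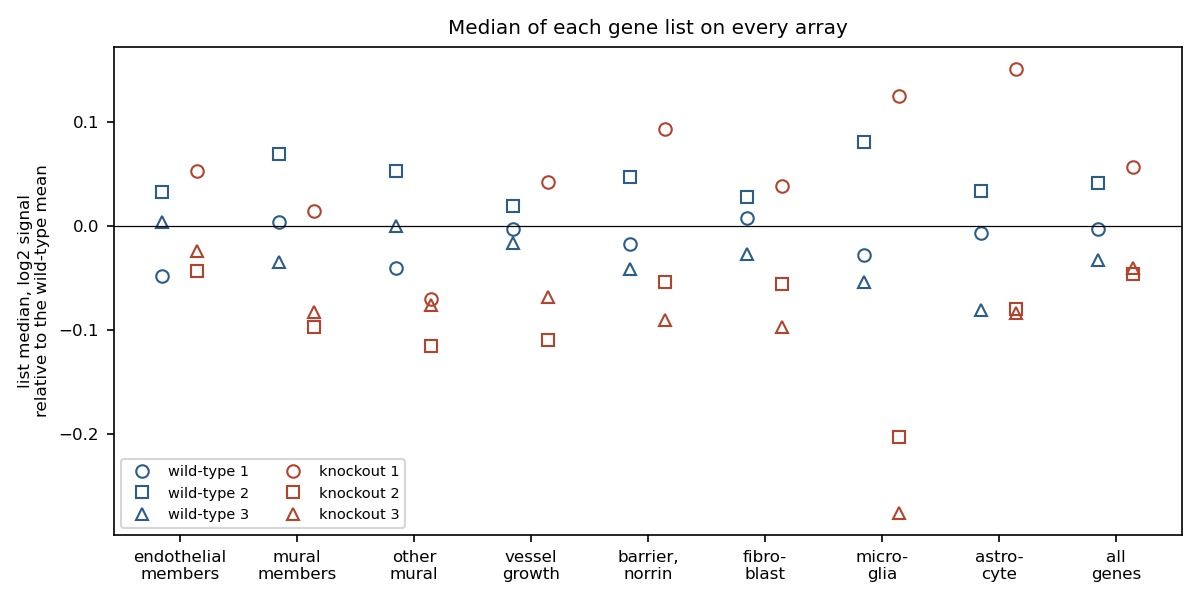
Median log2 signal of each gene list relative to the wild-type mean (vertical axis), for wild-type (blue) and knockout (red) arrays 1, 2 and 3 (circle, square, triangle). Knockout 1 lies above the other knockout arrays in all 9 columns, that of all genes included, and the endothelial and mural members overlap between genotypes.

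Other genes of vessels were described by lists that shared no gene with the members. Of 18 genes for vessel growth ligands and receptors 14 were lower and 4 higher in knockout, with a median of -0.05. Angpt2, the Tie2 ligand that loosens contacts between endothelium and pericytes, was the only one past an unadjusted p of 0.05, at 7.47, 6.77 and 6.86 in knockout and at 8.55, 8.63 and 8.16 in wild-type arrays. Its difference of -1.42 (SE 0.23) did not pass after adjustment (limma adjusted p = 0.544). The next in order of p were the receptor Notch1 at -0.18 (SE 0.10) and the Notch ligand Dll4 of sprouting tip cells at -0.13 (SE 0.10). Bulk tissue does not show which cells made the RNA of Angpt2 or of the other genes in this list. A source outside vessels was not tested.

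The 14 genes of the blood-retina barrier and the norrin pathway, which guides retinal vessel growth, had a median of -0.03, with 9 lower, 5 higher and 0 past an unadjusted p of 0.05. The lowest p-values belonged to the glucose transporter Slc2a1 at 0.15 (SE 0.14), the norrin co-receptor Lrp5 at -0.10 (SE 0.10) and the lipid transporter Mfsd2a at -0.12 (SE 0.15). Of 11 further mural genes 9 were lower and 2 higher, with a median of -0.06 and 0 past that threshold. Cnn1, the calponin of smooth muscle, had the lowest p of these, at 5.34, 5.48 and 5.39 in knockout and at 5.76, 5.73 and 5.48 in wild-type arrays. Its groups did not overlap, and the difference was -0.25 (SE 0.12, limma unadjusted p = 0.0736, adjusted p = 0.792). The transcription factor Tbx2 and Ndufa4l2, a mitochondrial protein of pericytes, followed at -0.14 (SE 0.09) and -0.13 (SE 0.10). Separation towards lower signal was seen in 3 of these 11 genes, Cnn1, Tbx2 and Higd1b, or 27.3%, against 11.2% of all genes tested. Nothing is read from so few genes.

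Markers of other cell types that a retina or its dissection could bring had median differences of -0.04 for 11 fibroblast genes, -0.12 for 12 microglia and macrophage genes, 0.0067 for 5 astrocyte genes, -0.05 for 8 lens genes, -0.0090 for 7 pigment epithelium and melanocyte genes, 0.03 for 6 rod genes and -0.0037 for 2 erythroid genes. In each of these lists 0 genes passed an unadjusted p of 0.05 in limma. The microglia and macrophage genes were lower in knockout in 11 of 12 and the fibroblast genes in 9 of 11, as were 9 of the 10 mural genes. Fibroblasts make Anpep and, when activated, Acta2 and Tagln. The fibroblast medians on the knockout arrays 1, 2 and 3 were 0.04, -0.06 and -0.10, and on the wild-type arrays 0.0076, 0.03 and -0.03, and their part in the values of those genes was not tested.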

How the data were processed

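The deposited table holds 1 log2 value for each of 100843 transcript clusters on 6 arrays. The log2 scale was inferred from the range of the deposited values, 1.48 to 13.86. Per the submitters' processing notes, which give no roles or versions, the tools were Affymetrix Expression Console and PLIER and the build was mm8. The normalization, background correction and log base were not given in the sources used here. Column medians differed by 0.103, so the values were quantile normalized. Clusters whose mean reached the 25th percentile (3.70) were kept, 75632 in all. Of the clusters, 22608 had 1 symbol, of which 22101 were updated through gene identifiers to RefSeq names (GRCm38.p6), 1462 had several and 76773 were unnamed. Knockout was compared with wild-type with limma 3.58.1 in R 4.3.3 (lmFit, eBayes), by a two-sided test whose p-values were adjusted over the kept clusters by the method of Benjamini and Hochberg. The number of arrays, 3 per group with 4 residual degrees of freedom, limits the precision.

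The members and lists were chosen with earlier results of these data known. All members are named, with values on every array for the 6 lowest p-values, for Pecam1, Cdh5, Cldn5, Pdgfrb, Rgs5 and Acta2, and where groups did not overlap. For 11 other lists of 118 genes, 101 of them tested, counts and medians are given, with the 3 lowest p-values for the lists of vessel genes. Lists had no set test. The comparison was tested on simulated data. The settings changed in turn were median centring or no normalization, no filter or a 50th percentile filter, an intensity trend, array weights, the sample number as a block, 1 row per gene, the mean of a gene's clusters, and each array left out. Figures used matplotlib 3.10.9.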

Additional observations from a re-analysis of the deposited data

How the results depend on the processing

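In each of the 15 alternative settings 0 clusters, and so 0 vascular genes, passed an adjusted p of 0.05 in limma, and the smallest adjusted p of a vascular gene in any setting was 0.612. At an unadjusted p of 0.05 the main fit gave 4969 clusters, of which 279 were gene rows, against 778 gene rows with 1 row per gene. Of the 31 vascular genes 0 passed in any setting, except Acta2 without wild-type 3. The mural count therefore ranged from 0 to 1 with an array left out. The list medians moved by less than the spread between arrays in all settings. Of the 31 genes, 16 kept their sign in all settings. With values as deposited or median centring, Pecam1 stood at 0.0013 or 0.0029, Pdgfrb at 0.019 or 0.020 and Rgs5 at 0.029 or 0.030, and with the mean of its clusters Rgs5 stood at 0.10. With the mean of its clusters Sox17, the gene with the largest difference, fell from -0.38 to -0.026 without a change of sign. With array weights Cdh5 stood at -0.028, Erg at -0.017, Egfl7 at -0.023, Robo4 at -0.0019, Plvap at -0.049 and Kcnj8 at 0.010; with them 16 of 21 endothelial genes were lower. With an array left out, the values that changed sign ranged as follows. Pecam1 ranged from -0.038 to 0.017, Cdh5 from -0.026 to 0.093, Cldn5 from -0.13 to 0.060, Erg from -0.023 to 0.025, Ets1 from -0.0099 to 0.090, Ramp2 from -0.011 to 0.083, Egfl7 from -0.031 to 0.065 and Robo4 from -0.024 to 0.042. Clec14a ranged from -0.016 to 0.11, Plvap from -0.069 to 0.31, Pdgfrb from -0.21 to 0.085, Anpep from -0.16 to 0.21, Rgs5 from -0.12 to 0.063, Abcc9 from -0.11 to 0.0048 and Kcnj8 from -0.19 to 0.040. Without a change of sign, values that moved by over 1.5 times included those of Mmrn2, from -0.068 to -0.00020, Nos3, from 0.0011 to 0.087, Abcb1a, from 0.0057 to 0.040, Icam2, from -0.11 to -0.054, Emcn, from -0.13 to -0.061, Tagln, from -0.21 to -0.091, and Des, from -0.094 to -0.037. The cause was not tested. Deviations of same-numbered samples correlated at 0.01, -0.09 and 0.08, so the numbers were not taken to pair the samples, and with the replicate block 0 clusters passed the adjusted threshold and 5032 the unadjusted one. Signal over background is unknown, which limits what dim clusters such as those of Emcn and Abcb1a can show. With the 50th percentile filter 17 endothelial and 9 mural genes remained, and Emcn, Abcb1a, Erg, Mmrn2 and Des dropped out. The deposited column medians lay between 4.97 and 5.07, and Cdh5, Robo4 and Abcc9 were close to them. The means of Emcn, Abcb1a, Erg, Mmrn2 and Des lay below them. For all these genes a small difference or a narrow interval may reflect background signal, which was not tested.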
